A study of Mus musculus with 12 samples.

Results

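The solute carrier families Slc3, Slc6, Slc7, Slc36, Slc38, and Slc43 hold many of the proteins that carry amino acids across the membranes of mouse cells. Members were chosen by gene symbol alone, as every symbol that starts with 1 of these 6 family names, and 57 of the 24421 symbols counted met this rule. They comprise 2 Slc3, 20 Slc6, 16 Slc7, 5 Slc36, 11 Slc38, and 3 Slc43 symbols, of which 54 are transporter subunits and 3 (Slc6a19os, Slc7a6os, and Slc36a1os) are neighbouring genes named after a transporter. The Slc6 family also transports creatine, taurine, betaine, and monoamines, so not every member carries an amino acid.

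The RNA counted is bulk poly(A) RNA of 6 tumors and of the non-tumoral liver of 6 mice older than 18 months on a standard diet. The p21+/Tert mice carry telomerase reverse transcriptase under the Cdkn1a (p21) promoter, and the p21+/TertCi mice carry a catalytically inactive form under the same promoter, so every library comes from a transgenic animal and no wild-type liver is among them. Libraries are named by the number of the animal, after T for a tumor and NT for a non-tumoral liver. The p21+/Tert group has 4 tumors (T662, T663, T941, and T992) and 4 livers (NT961, NT663, NT941, and NT992), and the p21+/TertCi group has 2 tumors (T981 and T984) and 2 livers (NT981 and NT984). By the mutations that the paper gives for each animal, T662 and T663 are Ctnnb1-mutated, T941 (Egfr) and T981 (Hras) form the Egfr- or Hras-mutated class, and T992 and T984, both adenomas, are called driver-negative. That name is used here only for the lack of a reported Ctnnb1, Egfr, or Hras mutation. The paper reports frameshifts in the phosphatase genes Ppp1r9a and PtprE and an expression signature of MAPK activation for T992, and an Ep300 mutation for T984. It detected no chromosome gains or losses in T992 and T984. In T663 it reports a rearranged chromosome, the one that holds Slc7a7 and Slc7a8. It also reports gains on the chromosome of Slc7a1 in T941 and T981, on that of Slc38a4 in T662 and T981, and on X, which holds Slc6a8, in T663 and T941. For a set of tumors that includes T662 and T981, it reports a loss on another chromosome, often joined by a loss on X. Whether these changes reach the genes or alter their levels was not tested. No tumor carries the number of NT961, which was taken by elimination as the liver that belongs to T662 wherever a tumor is set beside its own liver. Each driver class holds 2 tumors, and both Ctnnb1-mutated tumors are p21+/Tert, so that in these tumors driver and genotype cannot be told apart. Axin2 and Glul, targets of beta-catenin, stood at 81.2 and 9494 CPM in T662 and 72.9 and 10316 CPM in T663, and at most at 13.8 and 1830 CPM in the other libraries.

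Between 14571716 and 26170661 reads per library were counted on genes. The summed level of 6 hepatocyte markers was 29787 to 54369 CPM in livers, 15693 and 31802 CPM in the Ctnnb1-mutated tumors, and 64718 to 94354 CPM in the other tumors, of which Alb alone gave 47664 to 72143 CPM in the last. CPM are counts relative to the library size, scaled by the trimmed mean of M values (TMM). Macrophage markers were far higher in NT981 (summed level 1122 CPM, against 103 to 285 CPM in the 5 other livers). Tert itself was counted at 10.5 to 17.3 CPM in livers and at 4.69 to 26.1 CPM in tumors, and the counts do not separate the transgene from the native gene or the active from the inactive form. In bulk tissue, fewer cells of a type and less RNA per cell cannot be told apart.

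Amino acid transporters work in a few biochemical groups. The light chains of Slc7 reach the cell surface only when joined by a disulfide bond to a heavy chain, Slc3a2 (4F2hc) or Slc3a1 (rBAT), and most of them exchange 1 amino acid for another. The cationic transporters of Slc7 carry arginine, lysine, and ornithine, the Slc38 transporters move glutamine and other small neutral amino acids with sodium, the Slc36 transporters move them with protons, and the Slc43 transporters include facilitators of large neutral amino acids. In the liver, uptake through Slc38 feeds gluconeogenesis, ureagenesis, and glutamine turnover, and Slc7a11 (xCT) with Slc3a2 imports cystine for glutathione synthesis.

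RNA of 35 members was abundant enough to be tested in the fits by driver class and genotype, and 31 of these also in the fit of all tumors against all livers. The other 22 members reached at most 4.25 CPM in any library, 8 of them had no read in any library, and 7 more had at most 10 reads over all 12 libraries. These scarce members included the monoamine transporters Slc6a2 and Slc6a3 and the epithelial transporters Slc6a14, Slc6a18, Slc6a20a, Slc6a20b, and Slc7a12. The 4.25 CPM belonged to Slc7a9, the light chain that pairs with Slc3a1 in kidney, in T663, and its next highest level was 0.27 CPM, in T941.

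A few genes supplied most of the transporter RNA of the livers. Levels of different genes were compared as CPM per kilobase of exon. In the 6 livers Slc38a3 (SNAT3, a glutamine transporter of hepatocytes) stood first at 406 ± 189 CPM per kilobase (SD, n = 6) and Slc38a4 (SNAT4) second at 263 ± 56.3. Slc38a3 was above Slc38a4 in 6 of 6 livers although their ranges overlapped, and Slc38a4 stood clear of every member after it. Slc7a2 (CAT2, a low-affinity arginine transporter in hepatocytes) followed at 68.5 ± 35.3, and Slc6a13 (GAT2, a betaine and GABA carrier) at 68.0 ± 10.8, and these did not differ beyond their spread, with Slc7a2 higher in 3 of 6 livers. Next came Slc3a1 (45.5 ± 19.3), Slc6a12 (the betaine transporter BGT1, 25.8 ± 1.92), Slc38a10 (18.8 ± 8.20), Slc38a2 (16.8 ± 5.55), Slc3a2 (13.6 ± 4.70), and Slc36a1 (12.7 ± 1.57), and within this run the ranges of all neighbours overlapped. The 10 genes held 92.6% to 95.5% of the summed length-scaled level of all members in livers and 82.5% to 91.4% in tumors. Slc38a3, Slc38a4, and Slc7a2 alone held 72.5% ± 8.27 in livers and 55.0% ± 5.76 in tumors (SD, n = 6 each). Slc38a3 and Slc38a4 kept the first places in tumors, at 183 ± 39.1 and 128 ± 52.6 CPM per kilobase.

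**Figure D1:**
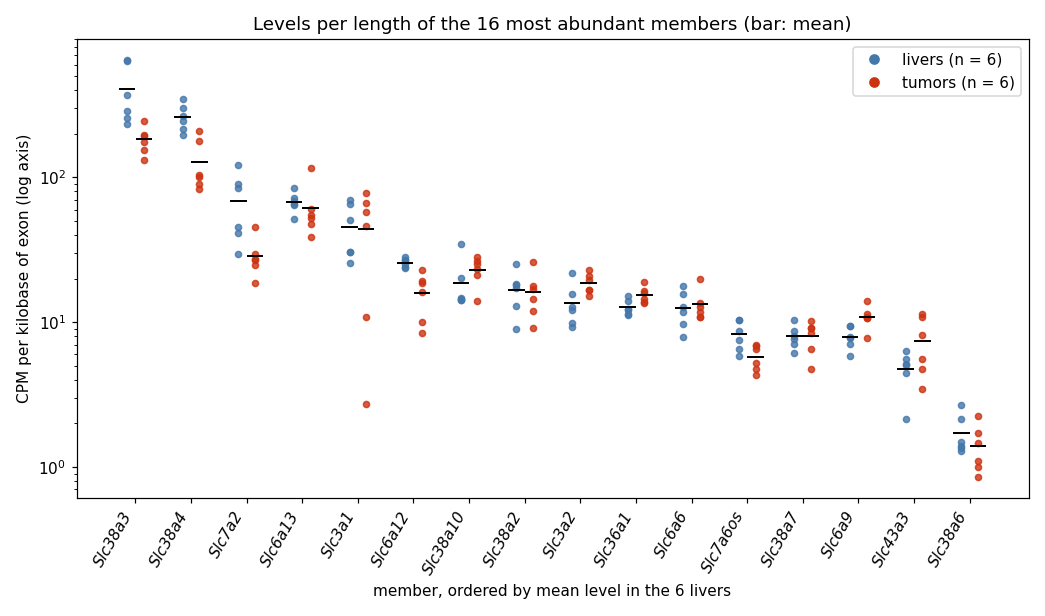
Level of the 16 most abundant members in CPM per kilobase of exon (log axis), with 1 point per library for 6 livers and 6 tumors and a bar at each mean. Slc38a3 and Slc38a4 lie above every other member in the livers, and both are lower in tumors (183 and 128 on average, against 406 and 263).

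Across all tumors against all livers, 3 members rose and 3 fell among 31 tested (edgeR's quasi-likelihood F test with Benjamini-Hochberg adjustment over 13822 genes), where 6.77% of all tested genes rose and 3.91% fell. The cystine exchanger Slc7a11, the y+L light chain Slc7a7, and the creatine transporter Slc6a8 rose. Slc38a3, Slc38a4, and Slc7a2, among the most abundant carriers of the liver, fell. Of the members 19.4% were called, against 10.7% of all tested genes. The median log2 fold change was 0.12 over the 31 members and 0.01 over all tested genes.

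**Figure D2:**
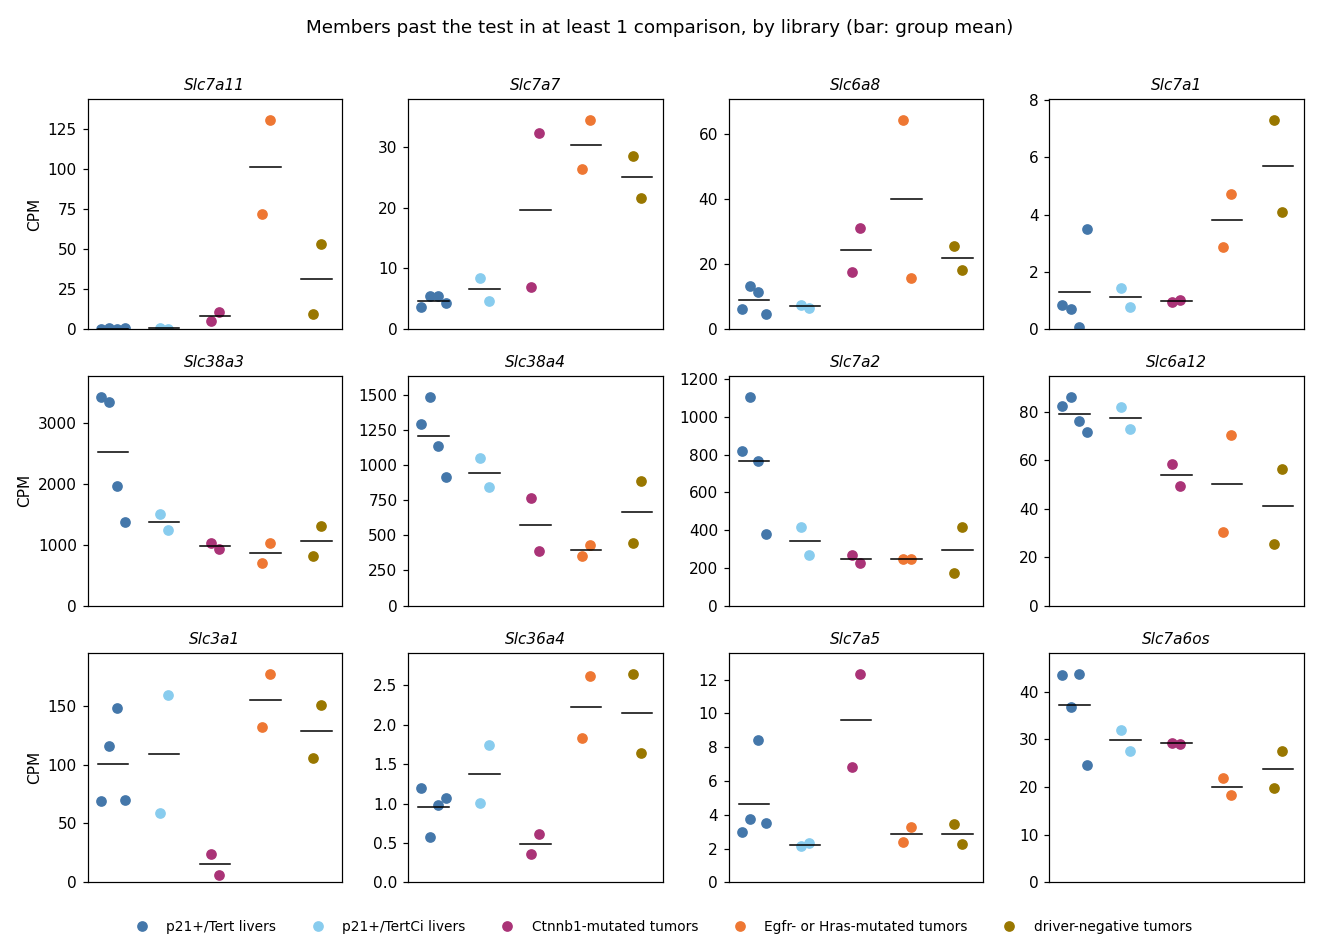
CPM of the 12 members past the test in at least 1 comparison, in 12 panels with linear axes from 0. Each point is a library, in groups of p21+/Tert livers (4), p21+/TertCi livers (2), and Ctnnb1-mutated, Egfr- or Hras-mutated, and driver-negative tumors (2 each), with a bar at the group mean. Slc7a11 is at or near 0 in all 6 livers and reaches 131 CPM in a tumor, while Slc3a1 is low in the 2 Ctnnb1-mutated tumors alone (24.5 and 6.18 CPM).

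Slc7a11 went from almost no reads to a readily counted transcript. It lies on chromosome 3 (GRCm38, 49892526 to 50443614, minus strand). Livers gave 0 reads in NT961, NT941, and NT984 and 0.258, 0.322, and 0.378 CPM in NT663, NT992, and NT981, which amounts to 19 reads over the 6 libraries. A count of 0 allows up to 0.187, 0.206, and 0.125 CPM in those 3 livers (3 reads over the library total before TMM scaling, counting error only). Their TMM factors are 0.884, 0.905, and 0.862, so these limits are somewhat higher on the scale of the other CPM. Tumors gave 4.91, 10.7, 71.6, 9.28, 131, and 53.2 CPM (T662, T663, T941, T992, T981, and T984), or 5423 reads in all. The groups did not overlap. The log2 fold change was 8.02 (SE 1.08, adjusted p = 0.00122), a size that depends on the 19 liver reads. Beside this rise the obligatory partner Slc3a2 gave 32.5 CPM in the lowest liver, 77.6 CPM in the highest (NT984), and a median of 43.9 CPM, and in tumors 53.6 to 80.9 CPM with a median of 63.7 CPM, so that the groups overlapped through NT992 and NT984. Slc3a2 was higher than in the own liver in 5 of 6 mice but did not pass the test (log2 fold change 0.44, SE 0.21, adjusted p = 0.203), except without NT984 (log2 fold change 0.63, adjusted p = 0.0382). Per kilobase, Slc3a2 remained more abundant than Slc7a11 in tumors on average (18.6 ± 2.96 against 3.36 ± 3.55, SD, n = 6).

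A stretch of 354 bases of an annotated Slc7a11 transcript is 96.6% identical to Tuba1b, an abundant tubulin gene, and 96.3% identical to Tuba1a. Tuba1b was counted at 33.1 to 49.2 CPM in livers and 49.0 to 114 CPM in tumors. NT961, NT941, and NT984, with 0 reads on Slc7a11, had 33.1 to 38.3 CPM of Tuba1b.

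The promoter of Slc7a11 is shown because it carries a pair of matches to the letters of the C/EBP-ATF response element, through which ATF4 acts under amino acid shortage, and that of Slc7a7 because it is the other member with such matches. Windows run from 250 bases before to 50 bases after the start of transcription in RefSeq (GRCm38.p6), 5′ to 3′ along the gene, and capitals mark the motif TGATGNAA on either strand.
Slc7a11: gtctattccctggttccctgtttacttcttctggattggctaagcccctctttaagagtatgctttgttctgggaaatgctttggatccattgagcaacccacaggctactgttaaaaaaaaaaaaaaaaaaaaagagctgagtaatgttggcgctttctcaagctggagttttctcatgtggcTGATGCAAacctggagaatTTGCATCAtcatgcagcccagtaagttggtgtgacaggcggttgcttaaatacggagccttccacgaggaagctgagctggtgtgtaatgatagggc
Slc7a7: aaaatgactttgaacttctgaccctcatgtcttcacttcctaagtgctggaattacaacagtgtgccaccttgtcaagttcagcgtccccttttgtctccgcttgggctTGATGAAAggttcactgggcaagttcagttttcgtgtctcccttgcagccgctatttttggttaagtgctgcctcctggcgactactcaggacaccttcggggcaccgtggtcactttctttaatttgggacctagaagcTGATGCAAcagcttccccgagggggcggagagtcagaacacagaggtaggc
The Slc7a11 window is chr3:50443564-50443863 on the minus strand, and its matches begin 66 and 47 bases before the start. The Slc7a7 window is chr14:54417895-54418194 on the minus strand, and its matches begin 141 bases and 1 base before the start. The motif was found in 3 of the 61 windows of the 40 members with a sequence, all of Slc7a11 or Slc7a7, and in 3.91% of 32544 mouse windows. The antioxidant response element TGACNNNGC was found in 11 of the 61 windows, from 9 members without Slc7a11, and in 12.4% of all windows. The TCF/LEF motif ATCAAAG was found in 3 of the 61 windows (Slc38a10, Slc38a9, and Slc7a1) and in 3.73% of all windows. A match is a string of letters and not evidence that a factor binds there.

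Slc7a7 (y+LAT1) exchanges cationic for neutral amino acids and pairs with Slc3a2. It lies on chromosome 14 (54369442 to 54417780, minus strand). Livers gave 3.53, 5.48, 5.38, 4.19, 8.44, and 4.60 CPM (NT961, NT663, NT941, NT992, NT981, and NT984), and tumors 6.94, 32.3, 26.3, 28.6, 34.5, and 21.6 CPM (T662, T663, T941, T992, T981, and T984). Each tumor was above its own liver, and T662 alone fell within the range of the livers. The log2 fold change was 2.24 (SE 0.34, adjusted p = 0.00219). The gene is expressed by macrophages as well, and the 6 macrophage markers summed to 103 to 1122 CPM in livers and 114 to 718 CPM in tumors, none of them past the test in any comparison made. NT981 had both the highest marker sum (1122 CPM) and the highest Slc7a7 level of the livers. Among tumors T981 and T663 were highest in both (718 and 471 CPM of markers) and T662 was lowest in both (114 CPM). T941, T992, and T984 had 217, 181, and 146 CPM of markers, within the range of the livers, with Slc7a7 above every liver. The part of macrophages in the Slc7a7 counts was not tested. The exons of Slc7a7 overlap Oxa1l on the opposite strand, which gave 52.3 to 74.9 CPM in livers and 46.2 to 106 CPM in tumors and did not pass the test in any comparison.

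Slc6a8 imports creatine and lies on the X chromosome (73673150 to 73682502, plus strand). Livers gave 6.15, 13.1, 11.3, 4.62, 7.44, and 6.49 CPM (NT961, NT663, NT941, NT992, NT981, and NT984), and tumors 15.8 CPM in the lowest (T981), 64.5 CPM in the highest (T941), and a median of 21.8 CPM. The groups did not overlap. The log2 fold change was 1.81 (SE 0.38, adjusted p = 0.00940), and it was 1.40 without T941.

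The 3 carriers that fell lie on chromosome 9 (Slc38a3, 107650634 to 107669530, minus strand), chromosome 15 (Slc38a4, 96994820 to 97055956, minus strand), and chromosome 8 (Slc7a2, 40862396 to 40922308, plus strand). Slc38a3 gave 3429, 3350, 1965, 1368, 1507, and 1237 CPM in livers (NT961, NT663, NT941, NT992, NT981, and NT984) and 1030, 925, 701, 819, 1023, and 1301 CPM in tumors (T662, T663, T941, T992, T981, and T984). Slc38a4, which carries neutral amino acids into hepatocytes, gave 1293, 1485, 1138, 915, 1051, and 842 CPM in the same order of livers and 764, 385, 354, 443, 429, and 888 CPM in tumors. Slc7a2 gave 819, 1106, 768, 377, 417, and 270 CPM in livers and 269, 228, 246, 171, 249, and 416 CPM in tumors. For all 3 genes 5 of 6 tumors were below their own liver, and T984 was above it (ratios of 1.05, 1.05, and 1.54). The livers were split, with NT961, NT663, and NT941 above NT992, NT981, and NT984 for all 3 genes. In the lower livers Slc38a3 and Slc7a2 gave 1237 to 1507 and 270 to 417 CPM, which overlapped the 701 to 1301 and 171 to 416 CPM of tumors. The split crosses genotype only through NT992, which is p21+/Tert. All 3 higher livers are p21+/Tert, and both p21+/TertCi livers are among the lower ones. Sample titles of the higher livers, and of T662, T663, and T941, start with p, and the other titles do not. What this marks is not given. The log2 fold changes were -1.15 for Slc38a3 (SE 0.32, adjusted p = 0.0355), -1.05 for Slc38a4 (SE 0.28, adjusted p = 0.0325), and -1.26 for Slc7a2 (SE 0.35, adjusted p = 0.0354). None of the 6 hepatocyte markers passed the test in this comparison, and their median log2 fold change was -0.40. In the tumors without Ctnnb1 mutation Alb rose and the median of the 6 markers was -0.36, with Cps1 at 849 to 1337 CPM against 721 to 2954 CPM in livers, Serpina1c at 1797 to 3973 against 3614 to 6280, and Ttr at 1669 to 4418 against 3511 to 6843. In the Ctnnb1-mutated tumors Cps1 and Serpina1c fell. The part of hepatocyte content in the lower levels of the 3 carriers was not tested.

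These 3 calls were less firm than those of the rising genes. Each was lost when any of 7 libraries was left out (NT961, NT663, NT941, T663, T941, T992, and T981), with log2 fold changes from -1.27 to -0.97 for Slc38a3, from -1.25 to -0.95 for Slc38a4, and from -1.44 to -1.03 for Slc7a2. With each mouse as a block, edgeR gave adjusted p = 0.0563 for Slc38a3 and 0.0642 for Slc7a2 (ranges over all alternatives 0.00133 to 0.113 and 0.00331 to 0.125), while Slc38a4 passed. The calls of Slc7a11, Slc7a7, and Slc6a8 held here in every alternative run.

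**Figure D3:**
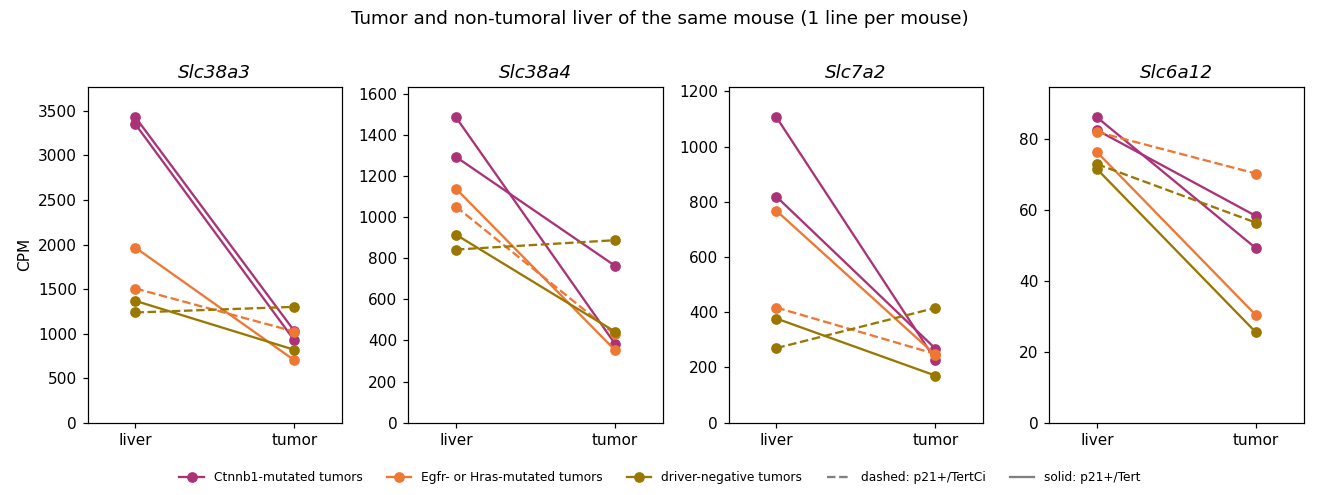
CPM of Slc38a3, Slc38a4, Slc7a2, and Slc6a12 in the non-tumoral liver and the tumor of each mouse (linear axes from 0), with 1 line per mouse, colored by the driver class of its tumor and dashed for p21+/TertCi. For Slc6a12 all 6 lines fall, and for the other genes 5 of 6 fall while the dashed line of the driver-negative tumor T984 rises.

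Driver class was compared next, in 1 fit of all 12 libraries over 15182 genes. In the Ctnnb1-mutated tumors 2 of 35 members rose (Slc7a11 and Slc7a7) and 1 fell (Slc3a1), where 5.00% of all tested genes rose and 3.20% fell. In the tumors without Ctnnb1 mutation 4 rose (Slc7a11, Slc7a7, Slc6a8, and Slc7a1) and 4 fell (Slc38a3, Slc38a4, Slc6a12, and Slc7a6os), where 11.3% of all tested genes rose and 11.5% fell. The shares of members called were 8.57% and 22.9%, close to the 8.20% and 22.8% of all genes called, so the families as a whole were called about as often as other genes. Both comparisons share the 6 livers.

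**Figure D4:**
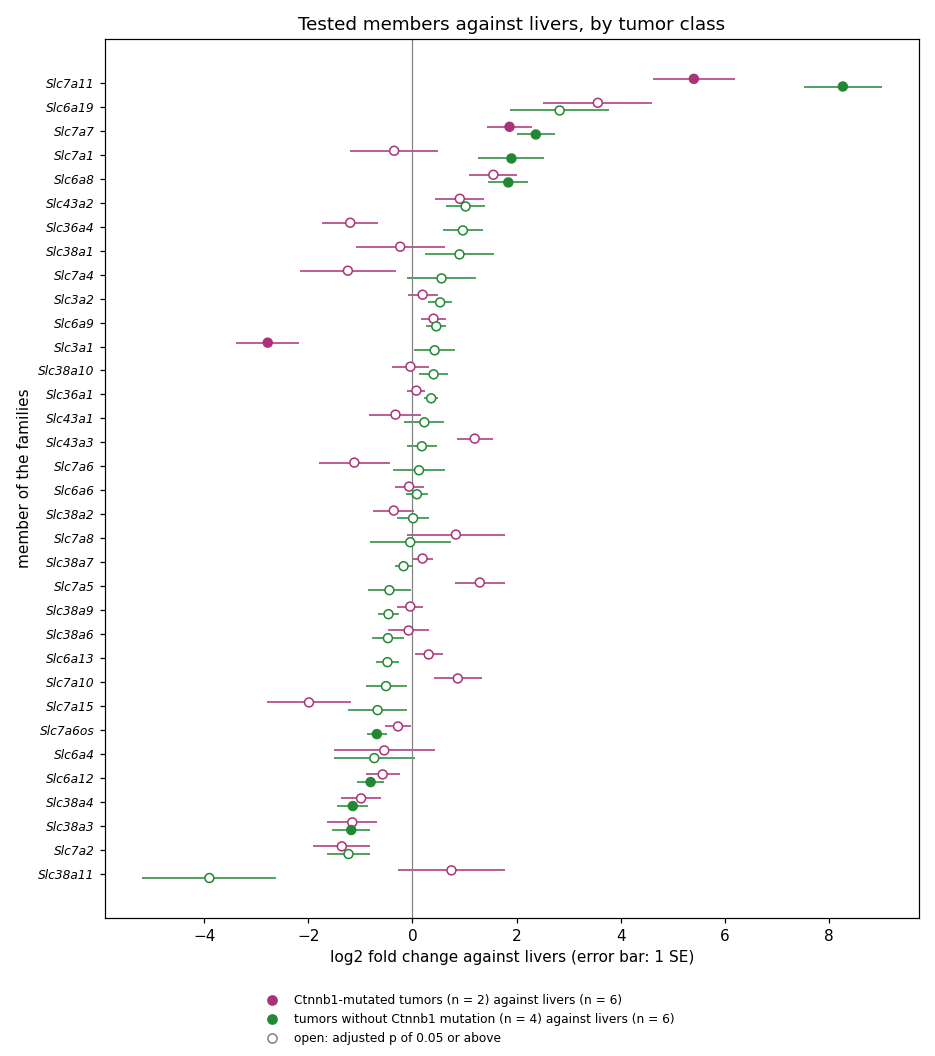
Log2 fold change against the 6 livers (error bar, 1 SE) for the tested members described here in Ctnnb1-mutated tumors (n = 2) and in tumors without Ctnnb1 mutation (n = 4), with filled points for an adjusted p under 0.05. Slc7a11 lies farthest to the right in both classes (5.41 and 8.27), and Slc3a1 lies at -2.78 in the Ctnnb1-mutated tumors and at 0.43 in the others.

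Against livers, Slc7a11 had a log2 fold change of 5.41 in the Ctnnb1-mutated tumors (SE 0.78, adjusted p = 0.00215, and 0.187 under the mouse block over 5 mice without that of T662, range over alternatives 0.000222 to 0.187) and of 8.27 in the others (SE 0.74, adjusted p = 6.43e-05). For Slc7a7 the corresponding values were 1.86 (SE 0.43, adjusted p = 0.0226) for the Ctnnb1-mutated class and 2.37 (SE 0.37, adjusted p = 0.00124) for the rest. In the Ctnnb1-mutated class the Slc7a7 value rested on T663, and without that tumor the log2 fold change was 0.39 (adjusted p = 0.706, range over alternatives 0.00256 to 0.706). Under the mouse block Slc7a7 had adjusted p = 0.0513 in that class. Slc6a8 rose in the tumors without Ctnnb1 mutation (1.84, SE 0.39, adjusted p = 0.00648) and had 1.55 in the Ctnnb1-mutated tumors (SE 0.46, adjusted p = 0.0618), with both of those tumors above every liver.

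Of the heavy chains, Slc3a1 fell in the Ctnnb1-mutated tumors. Slc3a1, which pairs with Slc7a9 in a cystine and dibasic amino acid exchanger, lies on chromosome 17 (85028376 to 85064236, plus strand). It gave 24.5 CPM in T662 and 6.18 CPM in T663, against 68.8, 116, 148, 69.7, 58.5, and 159 CPM in livers (NT961, NT663, NT941, NT992, NT981, and NT984) and 132, 106, 177, and 151 CPM in T941, T992, T981, and T984. The Ctnnb1-mutated tumors were below every other library. The log2 fold change was -2.78 against livers (SE 0.60, adjusted p = 0.0175) and -3.21 against the other tumors (SE 0.63, adjusted p = 0.0102). Under the mouse block the adjusted p was 0.0696 and 0.0917 (ranges over alternatives 3.97e-06 to 0.102 and 2.58e-07 to 0.0917), and without T663 the call against livers was lost, with a log2 fold change of -2.08. A stretch of 601 bases of Slc3a1, which measures 2271 bases, is shared with Prepl, a peptidase gene on the opposite strand. Prepl gave 34.1 and 15.4 CPM in T662 and T663 against 62.5 to 147 CPM in livers and 94.5 to 143 CPM in the other tumors, and it too fell (log2 fold change -2.05 against livers, SE 0.44, adjusted p = 0.0176). Whether the counting used strand is not given in the sources used here, so reads of the shared stretch cannot be told apart. Slc3a2 had a log2 fold change of 0.20 in the Ctnnb1-mutated tumors (SE 0.29, adjusted p = 0.736) and 0.53 in the others (SE 0.23, adjusted p = 0.118), with a call in the latter only without NT984 (0.73, adjusted p = 0.0130).

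**Figure D5:**
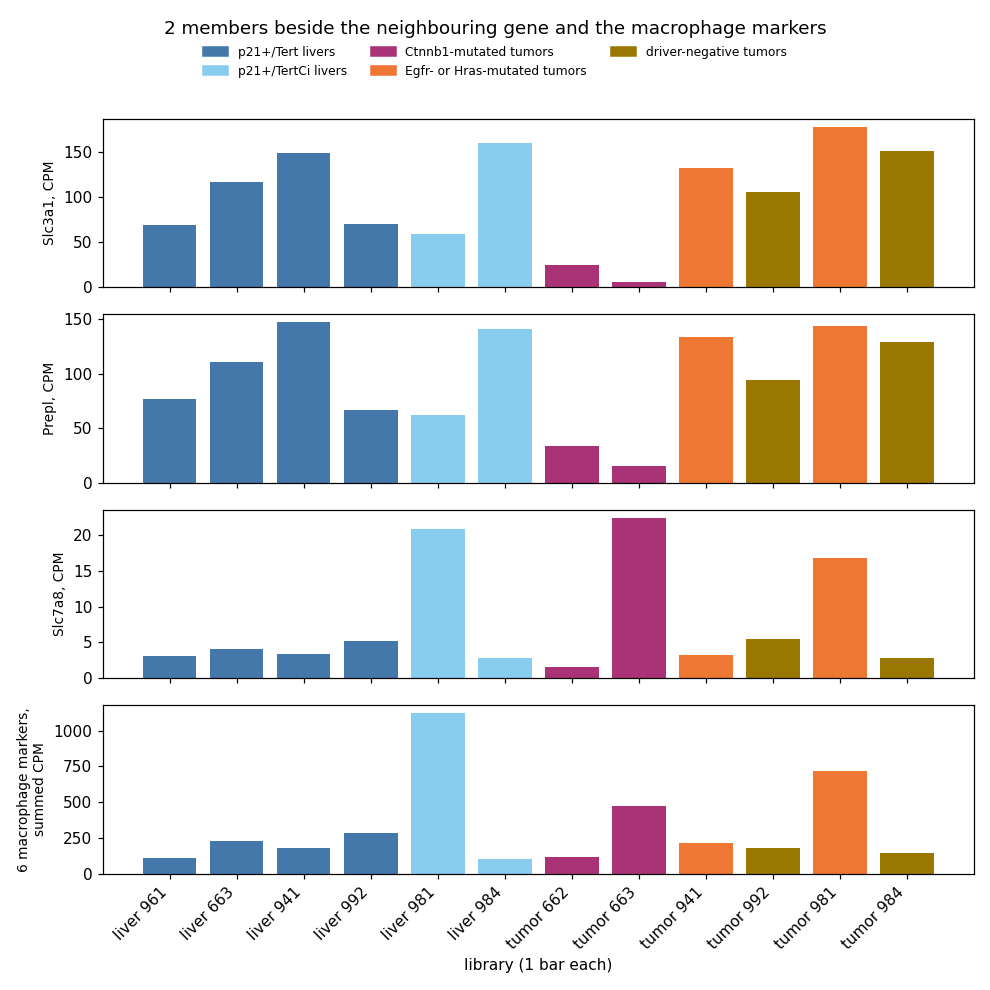
CPM in each of the 12 libraries (bars from 0, colored by group) of Slc3a1, of Prepl, whose exons overlap it, of Slc7a8, and of 6 macrophage markers summed. Slc3a1 and Prepl are lowest in T662 and T663, and Slc7a8 and the marker sum are highest in NT981, T663, and T981.

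Between the Ctnnb1-mutated and the other tumors, 1 of 35 members was higher and 3 were lower, where 6.76% of all tested genes were higher and 5.72% lower. The share of members called, 11.4%, was near the 12.5% of all tested genes. Slc7a5 (chromosome 8, 121881150 to 121907694, minus strand, LAT1, an exchanger of large neutral amino acids that pairs with Slc3a2) was the higher one. It gave 6.80 and 12.4 CPM in T662 and T663 and 2.38, 3.44, 3.29, and 2.27 CPM in T941, T992, T981, and T984 (log2 difference 1.74, SE 0.52, adjusted p = 0.0485). NT941 gave 8.42 CPM, within the span of the Ctnnb1-mutated tumors, and the 5 other livers 2.14 to 3.74 CPM. Besides Slc3a1, the lower members were Slc7a11 (log2 difference -2.86, SE 0.84, adjusted p = 0.0456) and Slc36a4, a carrier of proline and tryptophan (0.360 and 0.614 CPM against 1.65 to 2.65 CPM in the 4 other tumors, log2 difference -2.16, SE 0.58, adjusted p = 0.0341). The Slc36a4 values of T662 and T663 rest on 8 and 14 reads. Livers gave 0.580 to 1.74 CPM of it, a range that holds T663. For Slc7a11 the nearest values were 10.7 CPM in T663 and 9.28 CPM in T992, so the classes overlapped. Under the mouse block none of these 4 calls remained (adjusted p from 0.0917 to 0.598), and edgeR on the 6 tumors alone kept that of Slc3a1. With 1 library left out at a time, the call of Slc36a4 was lost without T662, T663, T992, or T981 (log2 difference -2.58 to -1.84, and -0.79 with adjusted p = 0.802 under the mouse block over 5 mice without that of T662, range over alternatives 0.00269 to 0.802), that of Slc7a11 was kept only without NT941, NT981, NT984, or T992 (-3.51 to -1.98), and that of Slc7a5 only without NT941, NT981, or NT984 (1.26 to 2.10).

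The tumors without Ctnnb1 mutation also showed more Slc7a1 and less Slc6a12. Slc7a1 (chromosome 5, 148327410 to 148399904, minus strand, CAT1, the ubiquitous arginine transporter) was scarce in the liver, at 0.848, 0.709, 0.0758, 3.49, 1.43, and 0.775 CPM (NT961, NT663, NT941, NT992, NT981, and NT984). It gave 2.86, 7.31, 4.73, and 4.09 CPM in T941, T992, T981, and T984, and 0.946 and 1.01 CPM in the Ctnnb1-mutated tumors. The log2 fold change was 1.90 (SE 0.63, adjusted p = 0.0497), at the threshold, and with 1 library left out the call was kept only without NT941 or NT992 (1.67 to 2.57). Each tumor was above its own liver in all 6 mice. Slc6a12 gave 71.7 to 86.3 CPM in livers and 30.4, 25.5, 70.4, and 56.5 CPM in T941, T992, T981, and T984, below the own liver in all 6 mice (log2 fold change -0.80, SE 0.26, adjusted p = 0.0425). With 1 library left out this call was kept only without T981 or T984 (-1.17 to -0.56). Slc38a3 and Slc38a4 had log2 fold changes of -1.18 (SE 0.37, adjusted p = 0.0394) and -1.15 (SE 0.30, adjusted p = 0.0171), and under the mouse block the adjusted p was 0.127 and 0.0555 (ranges over alternatives 0.00361 to 0.161 and 0.00035 to 0.0819). With 1 library left out, the call of Slc38a3 was kept only without NT992, NT981, or NT984 (-1.37 to -0.99), and that of Slc38a4 was lost without T941 or T992 (-1.45 to -0.94). Slc7a6os, a protein-coding neighbour of Slc7a6 and not a carrier, gave 24.6 to 43.8 CPM in livers and 18.2 to 27.6 CPM in these tumors (log2 fold change -0.68, SE 0.20, adjusted p = 0.0293), and it lost the call without NT961, NT663, NT941, T941, T992, or T981 (-0.82 to -0.57).

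Between the Egfr- or Hras-mutated and the driver-negative tumors no member was called by edgeR or DESeq2, where 0.00% of all tested genes were called by edgeR, and 1 member, Slc38a7, had an unadjusted p under 0.05. Slc7a11 stood at 71.6 and 131 CPM in the former and at 9.28 and 53.2 CPM in the latter (log2 difference 1.67, SE 0.85, adjusted p = 0.590).

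Genotype was compared with tissue in another fit of the 12 libraries. Sample titles that start with p occur in p21+/Tert mice alone, so genotype and title can hardly be told apart. In p21+/Tert mice 3 of 35 members rose from liver to tumor and 4 fell, where 4.20% of all tested genes rose and 2.30% fell (20.0% of members called, against 6.49% of all tested genes). Those that rose were Slc7a11 (log2 fold change 7.17, SE 1.22, adjusted p = 0.00869), Slc7a7 (2.32, SE 0.43, adjusted p = 0.0125), and Slc6a8 (1.96, SE 0.43, adjusted p = 0.0233). Those that fell were Slc7a2 (-1.77, SE 0.35, adjusted p = 0.0156), Slc38a3 (-1.56, SE 0.35, adjusted p = 0.0258), Slc6a12 (-0.97, SE 0.25, adjusted p = 0.0398), and Slc38a4 (-1.33, SE 0.35, adjusted p = 0.0445). The median log2 fold change was 0.34 over the 35 members and 0.04 over all tested genes. Only the call of Slc7a11 held in each alternative that gave it an adjusted p. Without NT961 it was the only call left. The call of Slc6a8 was also lost without NT992, that of Slc7a2 without NT663, and that of Slc38a3 without NT663, T941, or T992. Those of Slc38a4 and Slc6a12 were kept only without T662, T981, or T984, and for Slc6a12 also without T663. The log2 fold changes then ranged from 2.14 to 2.63 for Slc7a7, 1.48 to 2.21 for Slc6a8, -1.98 to -1.55 for Slc7a2, -1.75 to -1.37 for Slc38a3, -1.63 to -1.20 for Slc38a4, and -1.20 to -0.81 for Slc6a12.

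In p21+/TertCi mice, with 2 tumors and 2 livers, edgeR called no member (0.00% of all tested genes called), Slc7a11, Slc7a7, and Slc6a19 (3 members) had an unadjusted p under 0.05, and DESeq2 called 1, Slc7a7. The values of the rising genes lay on the same side as in p21+/Tert mice. The log2 fold change was 8.80 for Slc7a11 (SE 1.73, adjusted p = 0.200, with liver counts of 9 and 0 reads, and 7.89 to 13.78 with 1 library left out, the highest without NT981) and 2.08 for Slc7a7 (SE 0.60, adjusted p = 0.287). The difference of the tumor effect between genotypes was called for no member by edgeR or DESeq2 (0.00% of all tested genes called by edgeR, 1 member with an unadjusted p under 0.05). That member was Slc7a2, which was lower in all 4 p21+/Tert tumors than in their livers and in 1 of 2 p21+/TertCi tumors (log2 difference 1.71, SE 0.59, adjusted p = 1.00). Between the livers of the genotypes no member was called by edgeR or DESeq2 (0.00% of all tested genes called by edgeR), and Slc7a2 and Slc6a19 (2 members) had an unadjusted p under 0.05. Between tumors of equal driver class (T941 with T981, and T992 with T984) edgeR called no member (0.00% of all tested genes called, 3 members with an unadjusted p under 0.05), whereas DESeq2 called Slc6a12, which was higher in both p21+/TertCi tumors (log2 difference 1.19, SE 0.19, edgeR adjusted p = 0.155).

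Members that did not pass the test included several with uneven levels. Slc7a8 (LAT2, a light chain that pairs with Slc3a2) gave 20.8 CPM in NT981, 22.4 CPM in T663, and 16.8 CPM in T981, and 1.53 to 5.41 CPM in the 9 other libraries. The same 3 libraries had the highest macrophage marker sums, 1122, 471, and 718 CPM against 103 to 285 CPM in the others, with all 6 markers detected, and the part of these cells in the Slc7a8 counts was not tested. Slc43a3, an equilibrative nucleobase carrier of its family, gave 48.5 and 50.9 CPM in the Ctnnb1-mutated tumors and 9.55 to 36.4 CPM in the 10 other libraries (log2 fold change against livers 1.20, SE 0.34, adjusted p = 0.0537), and it passed under the mouse block (adjusted p = 0.0314). It was chosen for mention, like Slc7a8 and Slc7a9, after its values were seen. Of the most abundant members, Slc6a13 gave 150 to 246 CPM in livers and 112 to 338 CPM in tumors, Slc38a2 79.4 to 225 and 79.9 to 230, Slc38a10 90.9 to 224 and 90.2 to 181, and Slc36a1 62.9 to 85.2 and 75.9 to 107, and none of these passed the test in any comparison.

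Amino acid carriers outside the 6 families were taken from a list of 24 genes, of which 16 were tested for all tumors against livers and 19 by driver class. Slc1a4 (ASCT1, a neutral amino acid exchanger) rose in all tumors, from 4.45 to 15.5 CPM in livers to 41.3 to 112 CPM in tumors (log2 fold change 2.68, SE 0.32, adjusted p = 0.000701). So did Slc1a1, a glutamate and cysteine carrier, from at most 0.322 CPM in livers to 0.541 and 1.05 CPM in the Ctnnb1-mutated tumors and 5.00 to 27.5 CPM in the others (6.18, SE 1.03, adjusted p = 0.00317). The mitochondrial carriers Slc25a15 (ornithine, log2 fold change -1.22) and Slc25a38 (glycine, -0.78) fell. The glutamate transporter Slc1a2 parted by driver class, with 2323 and 1535 CPM in the Ctnnb1-mutated tumors, 157 to 364 CPM in livers, and 1.80 to 66.7 CPM in the other tumors. Its log2 difference between the tumor classes was 6.96 (SE 0.89, adjusted p = 0.000943). The glutamine exchanger Slc1a5 (ASCT2) gave 112 and 187 CPM in the Ctnnb1-mutated tumors, against 4.07 to 13.7 CPM in livers and 7.10 to 14.0 CPM in the other tumors (log2 difference 3.89, SE 0.41, adjusted p = 0.000352). The aromatic amino acid carrier Slc16a10 gave 180 and 222 CPM in the Ctnnb1-mutated tumors and 22.2 to 44.6 CPM in the others, against 72.7 to 227 CPM in livers (log2 difference 2.77, SE 0.36, adjusted p = 0.00104). Slc1a1, Slc1a2, Slc1a4, and Slc1a5 rose in the Ctnnb1-mutated tumors and none of the 19 fell, where 5.00% of all tested genes rose and 3.20% fell. In the others 2 rose (Slc1a1 and Slc1a4) and 6 fell (Slc1a2, Slc16a10, Slc25a13, Slc25a15, Slc25a22, and Slc25a38), where 11.3% of all tested genes rose and 11.5% fell.

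Of 10 genes known to answer to amino acid shortage and ATF4, all tested, 3 rose in all tumors (Psat1, Phgdh, and Trib3) and none fell, where 6.77% of all tested genes rose and 3.91% fell. Psat1 and Phgdh, which encode enzymes of serine synthesis, had log2 fold changes of 4.07 (SE 0.99, adjusted p = 0.0207) and 3.16 (SE 0.80, adjusted p = 0.0247), and the pseudokinase gene Trib3 had 1.78 (SE 0.36, adjusted p = 0.00830). In the tumors without Ctnnb1 mutation 4 of the 10 rose (Phgdh, Psat1, Sesn2, and Trib3), where 11.3% of all tested genes rose. In the Ctnnb1-mutated tumors 2 did (Ddit3 and Vldlr), where 5.00% rose. Chac1 gave 2.30 and 2.15 CPM in T662 and T663, against 4.13 to 17.5 CPM in livers and 4.43 to 8.18 CPM in the other tumors. Asns gave 0.135 and 1.84 CPM in T662 and T663, 0.210 to 31.1 CPM in livers, and 13.4 to 104 CPM in the other tumors. Between the tumor classes, Sesn2 was lower and Vldlr higher in the Ctnnb1-mutated tumors. Atf4 itself gave 158 to 210 CPM in livers and 134 to 248 CPM in tumors. Markers of other cells moved as well in the tumors without Ctnnb1 mutation, where 2 of 6 endothelial markers (Pecam1 and Cdh5) and 2 of 6 stellate cell and fibroblast markers (Acta2 and Col1a1) rose, as did 1 of 5 cholangiocyte markers (Sox9). In the Ctnnb1-mutated tumors Sox9, the hepatocyte markers Cps1 and Serpina1c, and the stellate cell markers Des and Lrat fell against livers. The part of these cells in the values of the members was not tested. The endothelial sum was 53.1 to 165 CPM in livers and 134 to 256 CPM in these tumors, and the stellate and fibroblast sum 24.0 to 111 and 102 to 279 CPM. The cholangiocyte sum was 50.9 to 134 CPM in livers, 60.8 to 1064 CPM in these tumors, and 17.8 and 35.5 CPM in the Ctnnb1-mutated ones.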

How the data were processed

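Poly(A) RNA of 12 libraries was sequenced, aligned by the authors to mm10 with the mCherry sequence added (Subread), and counted per gene with featureCounts 1.6.4. The deposited values are whole-number counts for 24421 symbols, without normalization, and neither the annotation nor the handling of multimapping reads is given in the sources used here. The study's term for the sequencing run could not be fitted, since the labels do not give it. Groups follow the genotype and tissue in the labels, and driver classes follow the paper. Whether a group's libraries share an extraction is not stated.

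Counts were tested with edgeR 4.0.16 (TMM, filterByExpr, quasi-likelihood F test) in R 4.3.3, with Benjamini-Hochberg adjustment over all genes tested and a threshold of 0.05, after a test on simulated data. The SE is the log2 fold change divided by the square root of F. Groups of 2 shared the spread of all libraries. The alternatives were DESeq2 1.42.0, a filter of 1 count, size factors by RLE, each mouse as a block, only the libraries compared, each library left out, and, for levels, the longest transcript. Same-numbered libraries come from 1 animal. Over 13839 genes the deviations of the 5 same-numbered pairs from the group means correlated with r of 0.0086, 0.04, 0.43, 0.54, and 0.54, the last pair of values mirroring each other in groups of 2. T662 and NT961, paired by elimination, gave 0.17, and libraries of different mice a median of -0.06. Lengths and positions are from GENCODE M21 (GRCm38). Members named are those past the test in any comparison, the 10 of highest level in livers, Slc3a2, and Slc7a11, and a few others were named after their values were seen (Slc43a3, Slc7a8, Slc7a9, Slc38a7, and Slc6a19), while members with few reads are named without values. Members and lists were chosen with earlier results of these data known. In the plot of fold changes 1 tested member is not shown, although all counts include it.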

Additional observations from a re-analysis of the deposited data

Results flagged for a closer look

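Within the groups of 4 or 6 libraries, 9 of 76 tests of the members named flagged a value that stood apart from the rest of its group by Dixon's criterion. Chance flags about 1 in 20 independent tests. The groups of 4 lie within those of 6, and Slc7a8 and Slc43a3 were named after their values were seen. The 9 flags can therefore not be set against that rate. In livers these were Slc38a10 at 223.9 CPM in NT984, Slc7a8 at 20.79 CPM in NT981, and Slc7a5 at 8.417 CPM in NT941, the last also among the 4 p21+/Tert livers. Among the p21+/Tert livers alone, Slc38a10 stood apart at 128.6 CPM in NT992 and Slc43a3, on the low side, at 9.555 CPM in NT941. In tumors they were Slc6a13 at 337.7 CPM in T662, Slc6a8 at 64.46 CPM in T941, and, among the p21+/Tert tumors, Slc7a11 at 71.64 CPM in T941.

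The tumor effect differed between the Ctnnb1-mutated and the other tumors, by the test of the difference itself, for Slc3a1 (log2 difference -3.21), Slc7a11 (-2.86), Slc36a4 (-2.16), and Slc7a5 (1.74). None of the 4 passed under the mouse block.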

How the results depend on the processing

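Of 28 calls of a member in a comparison, 7 held in all alternatives that gave an adjusted p, those of Slc7a11, Slc7a7, and Slc6a8 against livers in all tumors and in tumors without Ctnnb1 mutation, and that of Slc7a11 in p21+/Tert mice. No log2 fold change examined changed sign. DESeq2 called 9 members in Ctnnb1-mutated tumors against livers, 13 in tumors without Ctnnb1 mutation against livers, 1 in p21+/TertCi tumors against livers, and 1 between tumors of equal driver class, against 3, 8, 0, and 0. For Ctnnb1-mutated tumors against livers, 5 were called with every gene of at least 1 count, 5 with only the libraries compared, and 0 with the replicate block over 5 mice without that of T662. Between Ctnnb1-mutated and other tumors, 0 were called with the replicate block, 0 with that block over 5 mice, and 1 with only the libraries compared, where the 4 calls reported rested on the spread of all libraries. The block over all mice moved no other count by more than 1.5 times. It ended 10 of the single calls. With each library left out, the members called ranged from 3 to 8 for all tumors against livers, 1 to 6 for Ctnnb1-mutated tumors, 3 to 10 for tumors without Ctnnb1 mutation, 2 to 5 between these classes, and 1 to 8 in p21+/Tert mice, and stayed at 0 elsewhere. Where this left a class with 1 tumor, that tumor was assumed to vary like the other libraries. The share of all genes called was taken only for the main edgeR fits. None of the counts from DESeq2 or the other alternatives can therefore be set against such a share. With lengths of the longest transcript, 9 of the 10 most abundant members were the same. DESeq2 gave no adjusted p for Slc7a11 in p21+/Tert mice. Depth limits Slc7a11 in livers, where 3 reads equal 0.125 to 0.206 CPM before TMM scaling.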
